A study of Homo sapiens with 12 samples.

Results

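CAMK2N1 and DDC are 2 genes whose transcripts are known from other work to be held down by androgen in prostate cancer cells. They were followed here across 12 arrays of LNCaP cells. Each was chosen by its symbol. A gene with several transcript clusters, the probe groups that the array reports as 1 value, was to be read from the cluster with the highest mean, and both genes had 1 cluster. They are 2 of 14812 named genes and of the 11105 genes that were tested. Both were above the median of all deposited values on 12 of 12 arrays.

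LNCaP is an androgen-responsive line of luminal type from a lymph node metastasis of human prostate cancer. All 12 samples came from LNCaP infected with the control plasmid MSCV-LMP. The groups were 1 nM cabazitaxel, 1 nM docetaxel and vehicle (EtOH) for 16 h in full serum, and the same 3 treatments in charcoal dextran treated serum, with 2 arrays in each of the 6 groups. Charcoal removes steroid hormones from serum, among other small lipophilic molecules. The labels name no androgen added to any group, so no comparison changed androgen alone. The labels name the arrays of a group as replicates without saying that they were separate cultures, so a p-value here reflects only how far these arrays spread, which may be technical.

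Androgens induce secretory and metabolic genes in luminal prostate cells and also lower a smaller group of transcripts. CAMK2N1 encodes an endogenous inhibitor of calcium/calmodulin-dependent protein kinase II (CaMKII), a kinase that couples calcium signals to phosphorylation. DDC encodes aromatic L-amino acid decarboxylase, the pyridoxal phosphate enzyme that makes dopamine from L-DOPA and serotonin from 5-hydroxytryptophan. It is also used as a marker of neuroendocrine prostate tumours.

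CAMK2N1 (transcript cluster 16682829) lies at chr1:20482391-20486210, and DDC (transcript cluster 17057736) lies at chr7:50458442-50565405, both in GRCh38.p14 gene annotation from RefSeq. The RefSeq promoter table matched DDC, 1 of the 2 genes, and gives it 2 start sites that lie 4334 bases apart on the minus strand. Both windows are shown because the single DDC cluster gives 1 value for the gene, so the values that follow do not say which start was used. Each window holds 250 bases before the start in lower case and the first 50 transcribed bases in capitals, 5′ to 3′ on the minus strand. The first is chr7:50565356-50565655, with a GC content of 44.3%, and the second is chr7:50561022-50561321, with a GC content of 57.3%.
DDC, first start: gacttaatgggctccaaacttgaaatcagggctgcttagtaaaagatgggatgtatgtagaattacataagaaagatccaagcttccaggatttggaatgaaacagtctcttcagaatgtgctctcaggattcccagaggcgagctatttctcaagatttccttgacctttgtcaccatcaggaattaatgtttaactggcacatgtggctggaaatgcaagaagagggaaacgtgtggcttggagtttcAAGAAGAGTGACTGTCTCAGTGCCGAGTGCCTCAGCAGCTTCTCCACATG
DDC, second start: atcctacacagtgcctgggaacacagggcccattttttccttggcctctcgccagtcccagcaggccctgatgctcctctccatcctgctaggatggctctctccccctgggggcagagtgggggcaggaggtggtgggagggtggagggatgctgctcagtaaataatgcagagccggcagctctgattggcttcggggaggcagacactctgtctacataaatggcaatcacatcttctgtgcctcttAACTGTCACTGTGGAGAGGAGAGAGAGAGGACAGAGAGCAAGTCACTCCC

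Both genes were lower in full than in charcoal serum. On the log2 intensity scale, CAMK2N1 read 6.20 and 6.19 with cabazitaxel, 6.30 and 6.11 with docetaxel and 6.13 and 5.85 with vehicle in full serum. In charcoal serum it read 6.39 and 6.59 with cabazitaxel, 6.54 and 6.54 with docetaxel and 6.37 and 6.48 with vehicle. All 6 full serum arrays therefore lay below all 6 charcoal arrays, the highest full serum value being 6.30 and the lowest charcoal value 6.37, a gap of 0.0668. As deposited, before the log was taken, the CAMK2N1 intensity ran from 57.7 to 78.7 in full serum and from 82.5 to 96.6 in charcoal serum.

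DDC read 5.33 and 5.16 with cabazitaxel, 5.38 and 5.18 with docetaxel and 5.32 and 5.07 with vehicle in full serum. In charcoal serum its log2 intensity was 5.72 and 5.50 with cabazitaxel, 5.56 and 5.48 with docetaxel and 5.58 and 5.56 with vehicle. Here too the sera did not overlap, with a gap of 0.0941 between the highest full serum value of 5.38 and the lowest charcoal value of 5.48. The DDC intensity ran from 33.5 to 41.8 in full serum and from 44.6 to 52.7 in charcoal serum, against a median of 22.3 over all values in the table. Of all tested genes, 159 (1.43%) had every full serum array below every charcoal array.

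**Figure D1:**
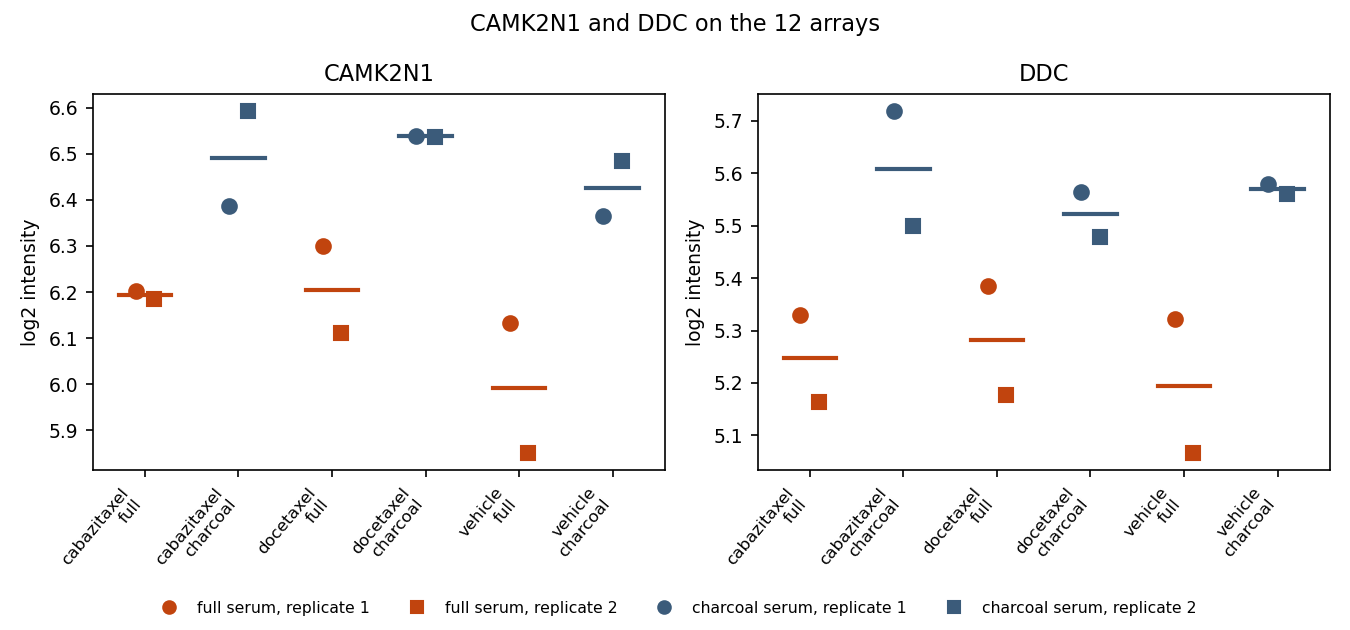
Log2 intensity of CAMK2N1 and DDC on each of the 12 arrays, by treatment and serum, with 1 point per array and a line at each group's mean. For both genes the 6 full serum arrays lie below the 6 charcoal arrays, with gaps of 0.0668 for CAMK2N1 and 0.0941 for DDC.

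Averaged over the 3 treatments, CAMK2N1 fell by 0.35 on the log2 scale in full serum (SE 0.0623, 95% confidence interval -0.49 to -0.22, limma adjusted p = 0.0120), a level 0.782 times that in charcoal serum. DDC fell by 0.33 (SE 0.0648, 95% confidence interval -0.47 to -0.18, limma adjusted p = 0.0232), to 0.798 times the charcoal level. Called means an adjusted p under 0.05. Of 11105 genes, 256 were called in this comparison (2.31%), of which 122 were higher and 134 lower (1.21%), so both genes belonged to a small share of the transcripts. Ordered by their change, CAMK2N1 stood at place 57 and DDC at place 69 from the most negative of all tested genes.

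An exact two-sided permutation test, which exchanged serum labels within each treatment over 216 arrangements, gave p = 0.00926 for each gene, with n = 6 arrays per serum. That is the smallest p this test can give here, and it is not adjusted. Every gene whose arrays do not overlap between the sera reaches it, as do the 159 genes (1.43%) above. It therefore adds nothing to the separation already described. In bulk RNA, fewer cells that express a gene and less of its RNA per cell cannot be told apart.

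The difference had the same sign within each treatment but was not called in any of them. CAMK2N1 differed by -0.30 with cabazitaxel (limma adjusted p = 0.559), -0.33 with docetaxel (adjusted p = 0.390) and -0.43 with vehicle (adjusted p = 0.174), with 2 arrays against 2. For DDC the values were -0.36 with cabazitaxel (adjusted p = 0.400), -0.24 with docetaxel (adjusted p = 0.619) and -0.38 with vehicle (adjusted p = 0.279). The docetaxel difference of DDC was the only one of the 6 whose interval reached 0, running from -0.49 to 0.0063. Within a treatment few genes were called at all, 44 with cabazitaxel (0.396%), 35 with docetaxel (0.315%) and 44 with vehicle (0.396%).

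Single arrays decided the call of DDC but not that of CAMK2N1. CAMK2N1 was called when each of the 12 arrays was left out in turn, at -0.40 to -0.31, with limma adjusted p from 0.00605 to 0.0499. DDC kept its sign, at -0.37 to -0.28, but was not called without the second full serum array of cabazitaxel (adjusted p = 0.0852), docetaxel (0.0809) or vehicle (0.0589). It was also not called without charcoal cabazitaxel replicate 1 (0.0563), docetaxel replicate 1 (0.0681) or 2 (0.0521), or vehicle replicate 1 (0.0644) or 2 (0.0616). Subtracting an offset of 16 from every deposited value, which widens differences of dim genes, gave DDC -0.53 (adjusted p = 0.0585) and CAMK2N1 -0.45 (adjusted p = 0.0539), neither called. When 1 treatment was left out of the serum mean, DDC was called in none of the 3 cases, with adjusted p from 0.0558 to 0.131, and CAMK2N1 only without cabazitaxel.

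For both genes all 3 full serum group means lay below all 3 charcoal group means. For CAMK2N1, the means were 6.19 ± 0.012 with cabazitaxel, 6.21 ± 0.133 with docetaxel and 5.99 ± 0.200 with vehicle in full serum (SD, n = 2 each). In charcoal serum the CAMK2N1 means were 6.49 ± 0.146 with cabazitaxel, 6.54 ± 0.00084 with docetaxel and 6.42 ± 0.0836 with vehicle. Neighbours in the order of CAMK2N1 groups were separated by their arrays at only 2 steps, between full serum docetaxel and charcoal vehicle, and between full serum cabazitaxel and full serum vehicle.

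For DDC, the means were 5.25 ± 0.117 with cabazitaxel, 5.28 ± 0.146 with docetaxel and 5.19 ± 0.181 with vehicle in full serum (SD, n = 2 each). In charcoal serum they were 5.61 ± 0.156, 5.52 ± 0.0606 and 5.57 ± 0.0136 for the same treatments in that order. The 3 full serum groups overlapped one another and so did the 3 charcoal groups, and the only step without overlap lay between full serum docetaxel and charcoal docetaxel.

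The taxanes bind and stabilise microtubules, and the study set each drug against vehicle. Neither gene was called in any of the 6 comparisons of a drug with vehicle, in which limma called 0 of 11105 genes (0%). The number of genes with an unadjusted p under 0.05 in them ran from 446 to 672. Both drugs share the vehicle arrays, so their values are not independent of each other.

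With cabazitaxel, CAMK2N1 differed from vehicle by 0.20 in full serum and 0.066 in charcoal serum, and by 0.13 as the mean of both sera (95% confidence interval -0.034 to 0.30, limma adjusted p = 1.00). With docetaxel it differed by 0.21 in full serum, 0.11 in charcoal serum and 0.16 as the mean (95% confidence interval -0.0046 to 0.33, adjusted p = 0.797). In full serum, both cabazitaxel arrays of CAMK2N1 (6.20 and 6.19) lay above both vehicle arrays (6.13 and 5.85), a separation that 1946 genes (17.5%) showed. The lower vehicle array, replicate 2, decided much of that size: without it the cabazitaxel difference in full serum was 0.061, and the docetaxel difference was 0.072, while without replicate 1 they were 0.34 and 0.35.

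For DDC the cabazitaxel differences from vehicle were 0.053 in full serum, 0.038 in charcoal serum and 0.046 as the mean (95% confidence interval -0.13 to 0.22). With docetaxel the DDC differences were 0.087 in full serum, -0.049 in charcoal serum and 0.019 as the mean (95% confidence interval -0.16 to 0.19). In both sera the DDC arrays of each drug overlapped those of vehicle.

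Cabazitaxel differs from docetaxel by methoxy groups in place of hydroxyl groups on the taxane core, and both were given at 1 nM for 16 h. The pair was compared in 3 ways for each gene, in each serum and as the mean, with adjustment over all tested genes, and 0 genes were called (0%), with 314 to 601 at an unadjusted p under 0.05. CAMK2N1 differed between cabazitaxel and docetaxel by -0.029 as the mean (95% confidence interval -0.20 to 0.14), -0.011 in full serum and -0.047 in charcoal serum. Under quantile normalization these CAMK2N1 values turned to 0.0085, 0.013 and 0.0036, so the direction was not settled. DDC differed by 0.027 as the mean (95% confidence interval -0.15 to 0.20), -0.034 in full serum and 0.087 in charcoal serum. An interval that holds 0 does not show that the compounds act alike.

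Whether a drug acted differently in the 2 sera was tested as an interaction. For CAMK2N1 the cabazitaxel effect in full serum minus that in charcoal serum was 0.14 (95% confidence interval -0.20 to 0.47), and the same difference for docetaxel was 0.10 (95% confidence interval -0.23 to 0.44). For DDC the corresponding values were 0.015 (95% confidence interval -0.33 to 0.36) and 0.14 (95% confidence interval -0.21 to 0.49). The difference between the drugs changed between sera by 0.036 for CAMK2N1 and by -0.12 for DDC. None was called, and limma called 0 genes in each interaction (0%), with 380 to 402 at an unadjusted p under 0.05.

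**Figure D2:**
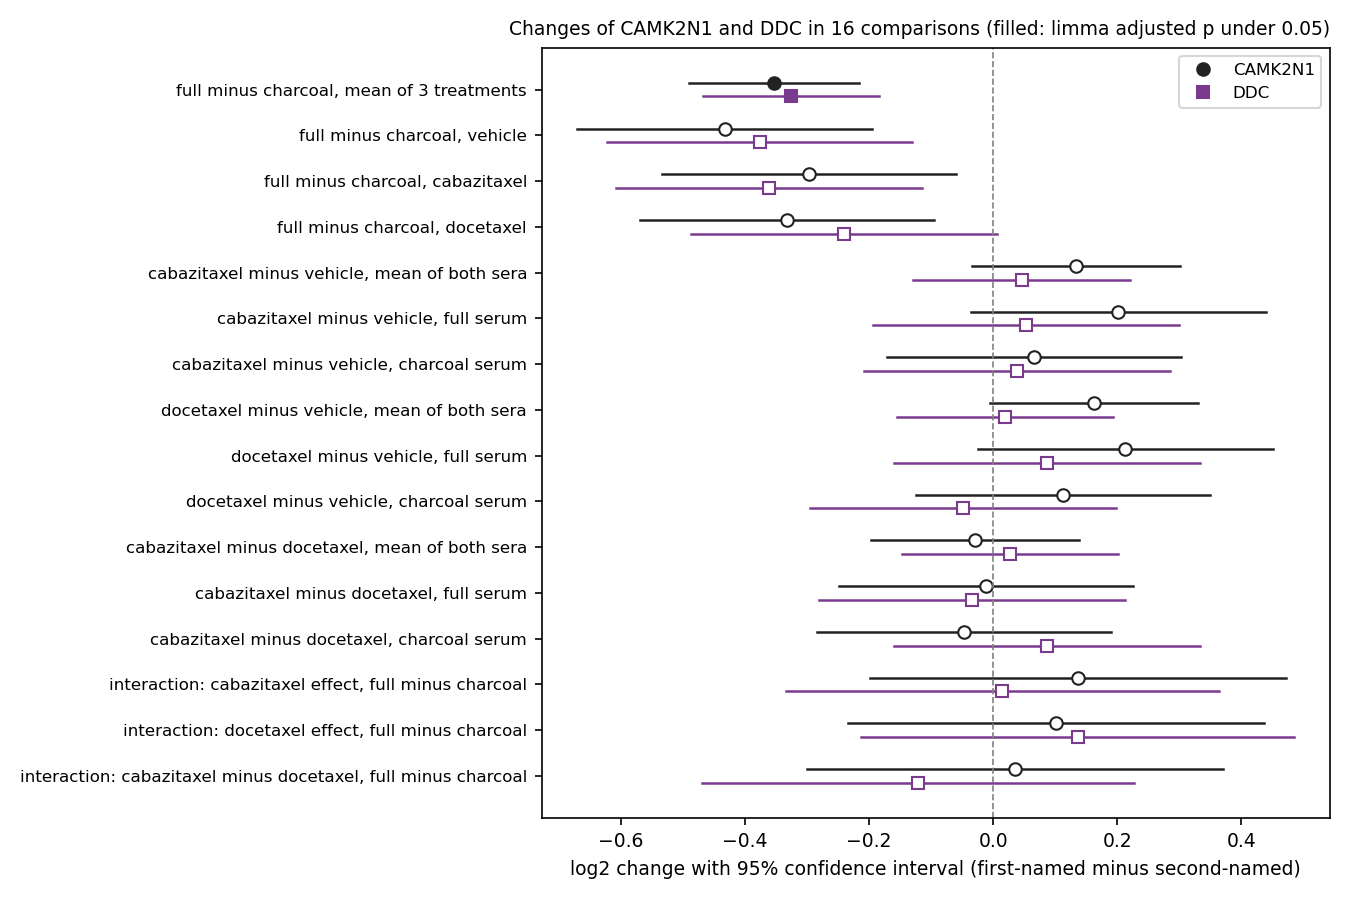
Log2 changes of CAMK2N1 and DDC in 16 comparisons, with 95% confidence intervals of limma; filled symbols have an adjusted p under 0.05. Only the serum difference averaged over the treatments, at -0.35 for CAMK2N1 and -0.33 for DDC, has filled symbols.

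CAMK2N1 and DDC were set against other genes described as androgen-repressed. Of 18 listed genes 10 were tested, and 9 of them had a negative serum difference, with a median of -0.11 over the 10 against -0.0014 over all tested genes, of which 50.9% were below 0. Called lower were 3, which are CAMK2N1, DDC and SI, so 1 of the 8 others, where 1.21% of all tested genes were called lower. SI, the intestinal disaccharidase sucrase-isomaltase, ran from 4.34 through a median of 4.46 to 4.51 in full serum and from 4.57 through 4.73 to 4.78 in charcoal serum. It fell by 0.27 (SE 0.0456, limma adjusted p = 0.00998), although its full serum values lay around the median of all values in the table, 4.48 on the log2 scale.

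The other androgen-repressed genes were not called. FOLH1, the gene of prostate-specific membrane antigen, ran from 9.58 to 10.08 in full serum and from 9.70 to 10.47 in charcoal serum, and its ranges overlapped (difference -0.20, adjusted p = 0.583). CLU, a secreted chaperone, differed by -0.14 (adjusted p = 0.383), and BCL2, an inhibitor of apoptosis, by -0.080. CCN3 differed by -0.052, MET by -0.030 and MYC by -0.015, while HSD17B6 went the other way at 0.034.

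Genes that androgen induces went the other way. Of 35 listed 20 were tested, all had a positive serum difference, and 14 were called higher, with a median of 0.42. Over all tested genes 1.10% were called higher and 50.9% were below 0, with a median of -0.0014. This list, like the androgen-repressed one, was chosen with earlier results of these data known. Its counts are therefore not independent evidence of a response to androgen. The called genes were TARP at 1.94, the kallikreins KLK2 at 1.47, KLK3 at 0.97 and KLK4 at 0.39, HERC3 at 0.97, CENPN at 0.94, ZBTB10 at 0.86, HOMER2 at 0.63, ELOVL5 at 0.57, EAF2 at 0.55, FKBP5 at 0.45, MPHOSPH9 at 0.39, NDRG1 at 0.34 and TPD52 at 0.18. TPD52 was not called when any of the 12 arrays was left out (limma adjusted p from 0.0600 to 0.133), and MPHOSPH9 was not called in 10 of those 12 cases (adjusted p from 0.0174 to 0.134 over all 12). KLK3, the gene of prostate-specific antigen, ran from 10.12 through 10.20 to 10.52 in full serum and from 8.90 through 9.33 to 9.52 in charcoal serum, a rise of 0.97 (adjusted p = 0.000368). The fitted differences of CAMK2N1 and DDC were smaller in size than that of KLK3, which was not tested as such. Whether changes of dim genes are compressed here was not tested. The offset of 16, a trial value, took the DDC difference to -0.53, which was not called (limma adjusted p = 0.0585).

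CAMK2N1 was the only called gene of its signalling list. Of 19 listed CaMKII genes 8 were tested, 4 with a positive and 4 with a negative serum difference, CAMK2N1 being among the latter. Neither of the kinase subunits typical of tissues outside the brain was called, CAMK2D differing by 0.10 (95% confidence interval -0.037 to 0.24) and CAMK2G by 0.019 (95% confidence interval -0.11 to 0.15). CAMK2N2, the related inhibitor gene, differed by 0.017 (95% confidence interval -0.093 to 0.13), with 4.62 to 4.80 in full serum and 4.62 to 4.87 in charcoal serum. The ranges of CAMK2N2 overlapped, whereas those of CAMK2N1 did not overlap.

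DDC was likewise the only called gene among those of amine synthesis, transport and breakdown and of the pyridoxal phosphate cofactor. Of 27 listed 9 were tested, 5 with a negative difference, DDC among them, and 4 with a positive difference. TH, the tyrosine hydroxylase that supplies L-DOPA to DDC, differed by -0.025 (95% confidence interval -0.13 to 0.084). DBH, which turns the dopamine made by DDC into noradrenaline, differed by 0.043 (95% confidence interval -0.043 to 0.13). MAOA, a monoamine oxidase of the outer mitochondrial membrane that also stands on the androgen-induced list, differed by 0.088 (95% confidence interval -0.0010 to 0.18), with 8.06 to 8.24 in full serum and 7.98 to 8.15 in charcoal serum. None of the other 8 tested genes was called in either direction.

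**Figure D3:**
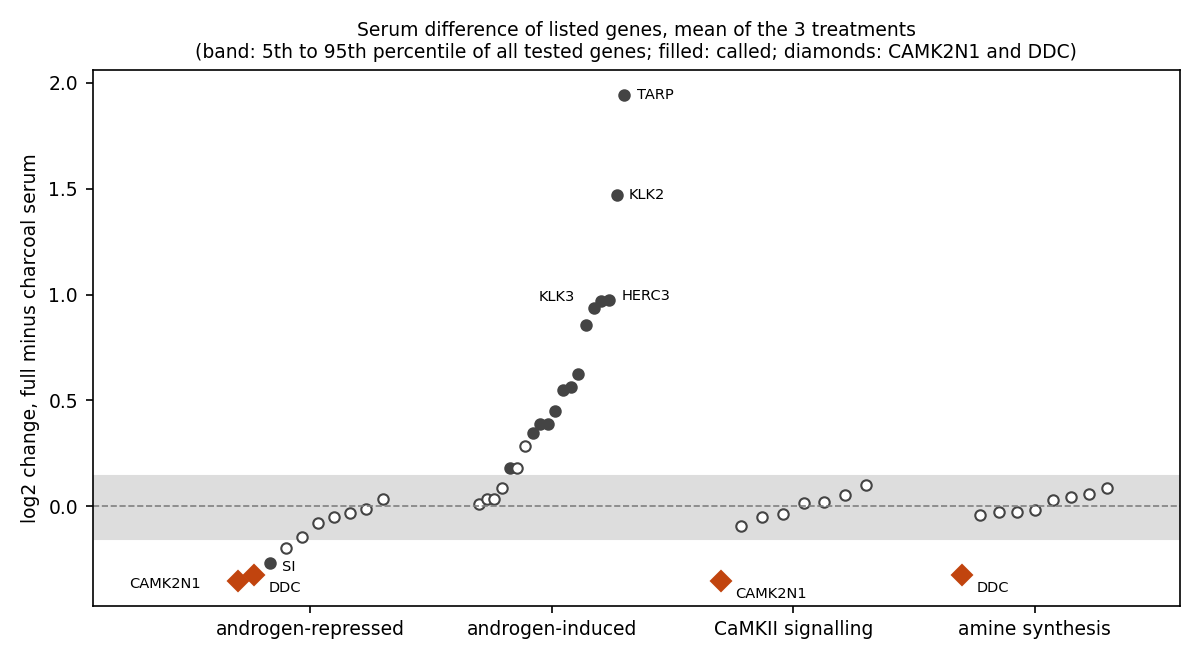
Serum difference (log2, full minus charcoal, mean of 3 treatments) of each tested gene in 4 lists, with called genes filled, CAMK2N1 and DDC as diamonds and a grey band from the 5th to the 95th percentile of all tested genes (-0.16 to 0.14). CAMK2N1 and DDC lie below the band and are the only called genes in the CaMKII and amine lists.

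DDC-AS1 (transcript cluster 17046066, chr7:50531759-50543463), an antisense transcript inside the DDC gene, was looked at after the DDC values had been seen. Its log2 intensity was 4.96 and 4.89 with cabazitaxel, 4.93 and 4.89 with docetaxel and 5.19 and 4.96 with vehicle in full serum. In charcoal serum it was 5.15 and 5.03 with cabazitaxel, 4.96 and 4.78 with docetaxel and 4.99 and 4.95 with vehicle. The sera overlapped, and the mean difference was -0.0074 (limma adjusted p = 0.978, exact permutation p = 0.917 with n = 6 per serum), with a 95% confidence interval of -0.13 to 0.11.

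DDC is also a neuroendocrine marker, and the other markers of that kind were examined beside it. Of 20 neuroendocrine markers 14 were named and 7 tested, with a median serum difference of 0.034. Of the 7, 0 were called, where 2.31% of all tested genes were called in either direction. The other 7 of the named genes had no array above the median of all values. The summed intensity of the 14 ran from 318 to 336 in full serum and from 315 to 335 in charcoal serum. With the median of all values at 22.3, these sums are mostly background. Their overlap therefore does not show whether a marker changed.

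All 8 named luminal markers were above the median on every array. So were 6 of the 14 named neuroendocrine, 2 of the 6 named basal and 3 of the 5 named fibroblast markers. Of all named genes, 75.0% exceeded the median on 2 or more arrays, so passing it says little about cell type. Their summed intensity was 2726 to 3312 in full serum and 2335 to 2673 in charcoal serum, a sum that holds KLK3. The 6 named basal markers summed to 146 to 154 in full serum and 142 to 151 in charcoal serum, with none of the 5 tested called. The 5 named fibroblast markers summed to 597 to 784 in full serum and 489 to 629 in charcoal serum, and of the 3 tested none was called. FN1, a matrix gene that epithelial lines also express, was at 0.34 (limma adjusted p = 0.0838), and with the replicate number as a block it was called (adjusted p = 0.00645). The part of these lists in the CAMK2N1 and DDC differences was not tested.

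The 2 genes moved together between the sera but not within charcoal serum. Across the 6 full serum arrays CAMK2N1 and DDC correlated with Pearson's r of 0.82 and Spearman's rho of 0.83, and r was 0.24 over the 4 arrays left when the 2 farthest from the CAMK2N1 median were dropped. Across the 6 charcoal arrays r was -0.74 and rho -0.66, and r was -0.58 over the 4 arrays left. The relation in full serum rests on those 2 arrays, and each set mixes 3 treatments of 2 arrays.

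Genes with the most similar pattern were taken by Pearson's r over all 12 arrays among 143 tested genes with an SD of at least 0.25. These values describe the arrays, which share the serum split. Most like CAMK2N1 were NFKB1, a precursor of an NF-kappaB subunit (r = 0.94), NIPSNAP3A (0.93), TP53INP1, a stress protein induced by p53 (0.92), MMP16, a membrane-bound matrix metalloproteinase (0.92), and SLFN5, an interferon-responsive gene (0.92). Most opposed to CAMK2N1 were ABHD2, a lipid hydrolase (-0.93), and the kallikreins KLK3 (-0.92) and KLK2 (-0.92).

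Most like DDC were SLFN5 (0.92), SDC4, a cell-surface heparan sulfate proteoglycan (0.89), LASP1, an actin-binding protein (0.89), CCL2, a monocyte chemokine (0.88), and SOX4, a transcription factor (0.88). Most opposed to DDC were CROT, a peroxisomal carnitine octanoyltransferase (-0.97), GPR158 (-0.94), and MPHOSPH9, a centriolar phosphoprotein (-0.92). SLFN5 was on both lists, at 6.67 to 7.08 in full serum and 7.39 to 7.53 in charcoal serum, the same order of sera as both genes. Within charcoal serum alone its r was -0.31 with CAMK2N1 and 0.28 with DDC, over 6 arrays. CROT kept its opposed pattern to DDC within both sera, at -0.91 in full and -0.84 in charcoal serum. NIPSNAP3A kept its likeness to CAMK2N1, at 0.73 in full and 0.85 in charcoal serum. The other listed genes also kept their sign within both sera, except SLFN5 with CAMK2N1 and LASP1 with DDC (0.65 in full and -0.51 in charcoal serum). DDC was higher in replicate 1 than in replicate 2 in 6 of 6 groups. In full serum CROT, centred on its mean, had the opposite order. Its replicates 1 and 2 read 0.10 and 0.44 with vehicle, 0.13 and 0.35 with cabazitaxel and 0.14 and 0.48 with docetaxel. In charcoal vehicle they read -0.22 and -0.31. An r within a serum was therefore not separated from replicate number.

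**Figure D4:**
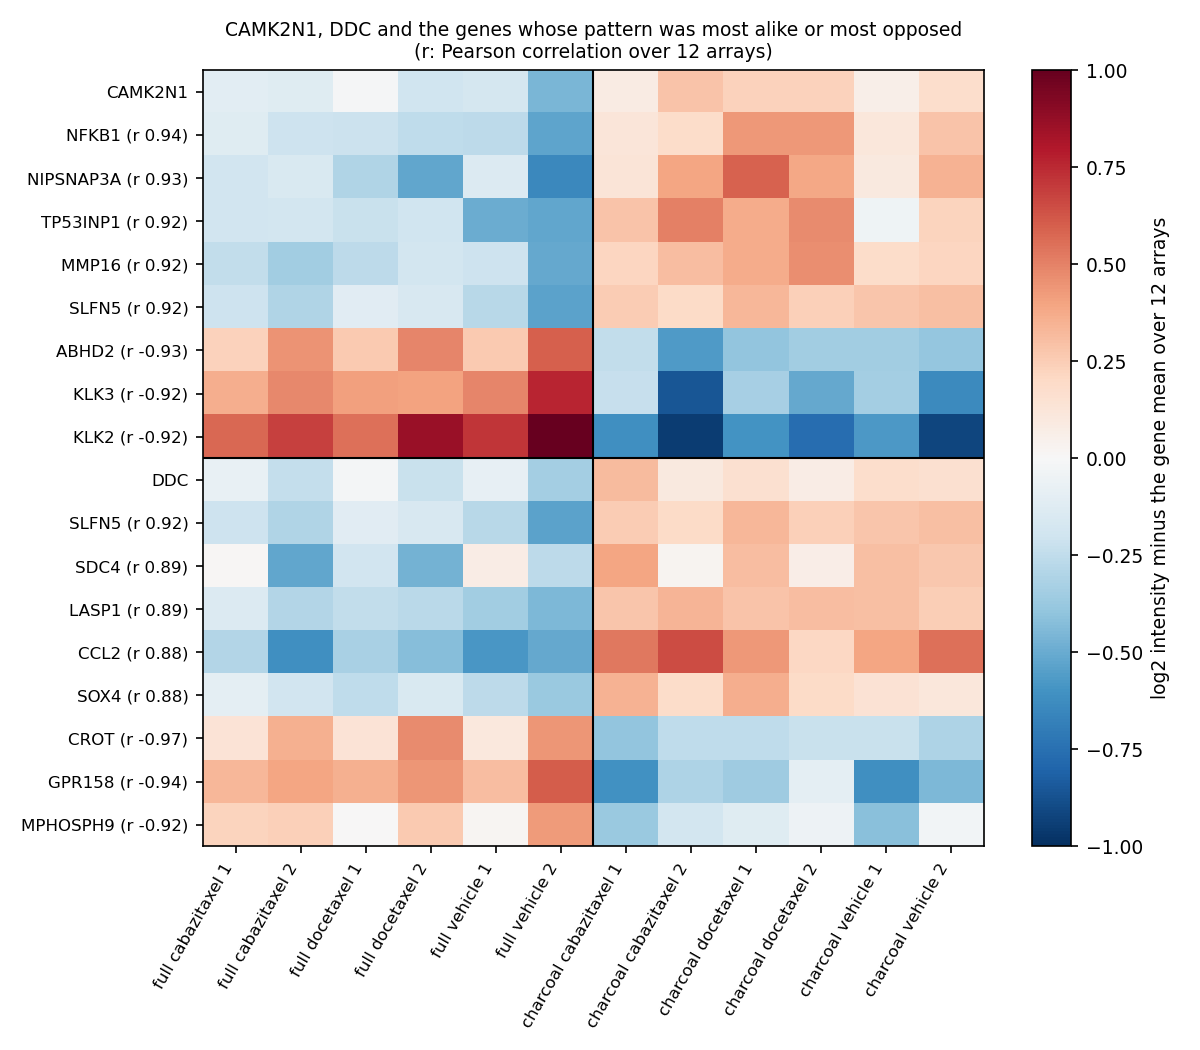
Log2 intensity of CAMK2N1, DDC and the genes most like and most opposed to each, centred on each gene's mean over 12 arrays, with arrays across and genes down. The 6 full serum arrays stand left of the 6 charcoal arrays, and CAMK2N1, DDC and SLFN5 are lower in the full serum columns while KLK3, KLK2 and CROT are higher there.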

How the data were processed

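The deposited values are array intensities on a linear scale, RMA-normalised by the authors as the submitters' processing notes and design text record. The version and the threshold of their filter on low-expressing genes are not given in the sources used here. Values ran from 17.32 to 6307, with array medians from 22.19 to 22.43, and replicates correlated across genes at 0.986 to 0.992. Precision is limited by the number of arrays. Of 44629 transcript clusters, 15835 had 1 gene symbol in the annotation at hand. The log2 of each value was taken, and a gene entered the tests if 2 or more arrays exceeded the overall median. All 12 arrays entered 1 limma 3.58.1 fit in R 4.3.3, with a mean per group, 6 residual and 5.08 prior degrees of freedom and 16 comparisons. Adjustment (Benjamini-Hochberg) ran over all tested genes in each comparison. The fit was tested on simulated data. The genes, the lists and the tests were chosen with earlier results of these data known. Neither list counts nor the p-values of CAMK2N1 and DDC are therefore independent evidence. Named were CAMK2N1 and DDC, called list members, up to 5 list members close to their roles and the closest patterns (5 alike, 3 opposed). Alternatives were an offset, other scalings and filters, all clusters, an intensity trend, the replicate block, the compared groups alone, single arrays left out and the methods' t-test.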

Additional observations from a re-analysis of the deposited data

How the results depend on the processing

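No deposited value is below 17.3, so changes of dim genes may be compressed by an amount that is unknown, and 2 arrays per group limit the precision. The serum differences of CAMK2N1 and DDC were negative in every alternative, single arrays left out included. With an offset of 16 subtracted neither was called (-0.45, adjusted p = 0.0539, and -0.53, adjusted p = 0.0585), and the genes called were 132 over the treatment mean, 10 with cabazitaxel, 9 with docetaxel and 16 with vehicle, with 1 on the androgen-repressed list. Without a filter on low values DDC was not called (-0.33, adjusted p = 0.0507), and 25 genes were called with cabazitaxel and 22 with docetaxel. In alternatives chosen after seeing the data, the serum mean without vehicle gave CAMK2N1 -0.31 (adjusted p = 0.0933) and DDC -0.30 (0.131), with 119 genes called and 0 on the androgen-repressed list. Without cabazitaxel DDC was at -0.31 (0.112), with 159 genes called and DDC-AS1 at 0.071. Without docetaxel CAMK2N1 was at -0.36 (0.0502) and DDC at -0.37 (0.0558), with 121 genes called and 1 on that list. Without vehicle CAMK2N2 was at -0.010 and TH at 0.049. All transcript clusters together gave 59 calls with docetaxel and 1 each for cabazitaxel against docetaxel in charcoal serum and for the interaction of the drugs. The compared groups alone gave 7 calls with cabazitaxel, 12 with docetaxel and 1 with vehicle. Quantile normalization turned CAMK2N1 between the drugs to 0.0085 as the mean, 0.013 in full and 0.0036 in charcoal serum. The causes were not tested. The methods' t-test gave 431 to 515 genes at an unadjusted p under 0.05 for a drug against vehicle within a serum, and 0 after adjustment.

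Whether same-numbered arrays are pairs is not settled: their deviations correlated positively in 14 of 15 group pairs and over 0.1 in 10 (-0.049 to 0.33, median 0.15). DDC was higher in replicate 1 than in replicate 2 in 6 of 6 groups, an order in one direction that 869 genes (7.83%) showed, and CAMK2N1 in 4 of 6. With the replicate block, the serum difference of CAMK2N1 had an adjusted p of 0.00947 and that of DDC 0.00218, and 70 genes were called with vehicle and 62 with docetaxel. No call of CAMK2N1 or DDC changed, while FN1 (0.34, adjusted p = 0.00645) and SDC4 (-0.45, adjusted p = 0.00150) were then called.

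Without 1 array at a time, DDC in the serum mean ran from -0.37 to -0.28, and the genes called from 149 to 248 over the mean (over 1.5 times below 256 without full cabazitaxel replicate 2, 151, full docetaxel replicate 1, 169, or 2, 149, or charcoal docetaxel replicate 2, 167), 9 to 19 with cabazitaxel, 7 to 21 with docetaxel and 7 to 43 with vehicle. Small values that took both signs were, for CAMK2N1, cabazitaxel against vehicle in charcoal serum (-0.037 to 0.17), its interaction (-0.0047 to 0.28), the docetaxel interaction (-0.040 to 0.24), cabazitaxel against docetaxel as the mean (-0.081 to 0.022), in full (-0.11 to 0.082) and in charcoal serum (-0.15 to 0.056) and their interaction (-0.067 to 0.14). For DDC they were cabazitaxel against vehicle as the mean (-0.018 to 0.11), in full (-0.075 to 0.18) and in charcoal serum (-0.072 to 0.15), docetaxel against vehicle as the mean (-0.045 to 0.083) and in full serum (-0.041 to 0.22), cabazitaxel against docetaxel as the mean (-0.029 to 0.082), in full (-0.14 to 0.069) and in charcoal serum (-0.023 to 0.20) and the cabazitaxel interaction (-0.11 to 0.14). Serum differences of CAMK2G (-0.022 to 0.061), CAMK2N2 (-0.015 to 0.048), TH (-0.062 to 0.011) and DDC-AS1 (-0.047 to 0.032) did so too.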
